A study of Bos taurus with 28 samples.

Results

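The comparison set filamentous bovine conceptuses of day 16 against hatched spherical conceptuses of day 10. Its members were chosen by the day in the sample labels: 11 of the 28 libraries of the series, 7 labelled day 10 and 4 labelled day 16. Another library labelled day 16, replicate 5, was left out because its file carries the title of a day 19 sample. Day 16 replicates 2 and 3 were nearly identical and were averaged into 1, which left 10 replicates, 7 of day 10 and 3 of day 16. Per the labels, all embryos came from crossbred beef heifers of about 18 months, synchronised with a progesterone device and a prostaglandin analogue, mated by insemination with semen of a single bull and flushed from the uterus after slaughter. The day 10 samples were pools of 5 embryos from heifers superovulated with FSH, and their polyadenylated RNA was captured directly on beads. Each day 16 sample was a single conceptus from a heifer that was not superovulated, and total RNA was extracted and DNase-treated before the same capture. Pooling, superovulation and RNA extraction therefore changed together with stage, and their parts cannot be told apart in the contrast of these 2 days. Day 13, used below for the course over time, shares the direct capture with day 10 but was of single conceptuses without superovulation, and day 19 was prepared as day 16. From day 16 replicate 5 on, 12 libraries in label order carry a file titled for another sample, 11 of them for the next one, which takes in every library labelled day 19 or day 7. In the 9 of them used here that title is of the labelled day, so the day stands but the individual sample is uncertain.

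In cattle the blastocyst hatches from the zona and stays free in the uterus for more than a week as a sphere, then an ovoid, then a filament. Elongation is growth of the trophectoderm and of the endoderm lining it, while the embryonic disc gastrulates at one point along the filament. The filament secretes interferon tau, the signal of maternal recognition that keeps the corpus luteum in place, and later the pregnancy-associated glycoproteins of its binucleate cells. The files give transcript identifiers without gene names, and 0 of 28054 identifiers were found in the RefSeq gene table used here, so the stage labels could not be checked against markers and no gene group is described. Transcripts are therefore described by level, length and course over the days, and 4 are named by identifier.

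Values are RPKM, reads per kilobase of transcript and per M (1e+06) mapped reads, and levels on the log2 scale are log2(RPKM + 1). Total reads ran from 0.641 to 5.2 M per replicate on day 10 and from 1.84 to 3.98 M on day 16. The 3.98 M is the mean of day 16 replicates 2 and 3, at 2489091 and 5476518 reads. Where reads are counted below, other than at equal depth, those of the pair were summed. The averaged pair differed by little more than sampling noise: chi-square per transcript averaged 1.19, with 1 for pure sampling, against 5.38 to 18.0 for the 5 other pairs of day 16. In day 10 replicate 7 a single transcript of 92 nucleotides took 38.4% of the reads, against at most 5.11% in any other of the 11 libraries. Day 10 replicates 4 and 5 were the most alike of the 21 pairs of their day, with a mean chi-square of 4.49 against up to 48.0, and were kept as 2 samples. The labels speak of biological replicates processed independently but do not name the heifer of each sample, and every p-value rests on the spread among the samples used.

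Of the 18352 transcripts tested, those reaching 1 RPKM in 3 or more of the 10 replicates, 250 changed (1.36%), 208 higher on day 16 (1.13%) and 42 lower (0.229%). A change is a Benjamini-Hochberg adjusted p under 0.05 in limma, with all 5 days in 1 model, and a log2 difference of at least 1. The rises were mostly of transcripts scarce on day 10 and the falls of well-read ones. The median level of the 208 was 8.02 RPKM on day 16, and 123 of them stayed under 10 RPKM. On day 16 that is near the level of all tested transcripts. The median per replicate averaged 3.06 over the rises and 3.02 over all tested on the log2 scale, against 0 and 2.96 on day 10. Of all 18352 tested, 8972 reached a mean of 10 RPKM on either day, as did 85 of the rises. The 42 that fell had a median of 37.1 RPKM on day 10 and none was under 10.4 RPKM there. The median change was 2.48 for the rises and -2.74 for the falls on the log2 scale, and 10 transcripts rose and 8 fell by at least 4. In these bulk samples, fewer cells of a type and less RNA per cell cannot be told apart.

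**Figure D1:**
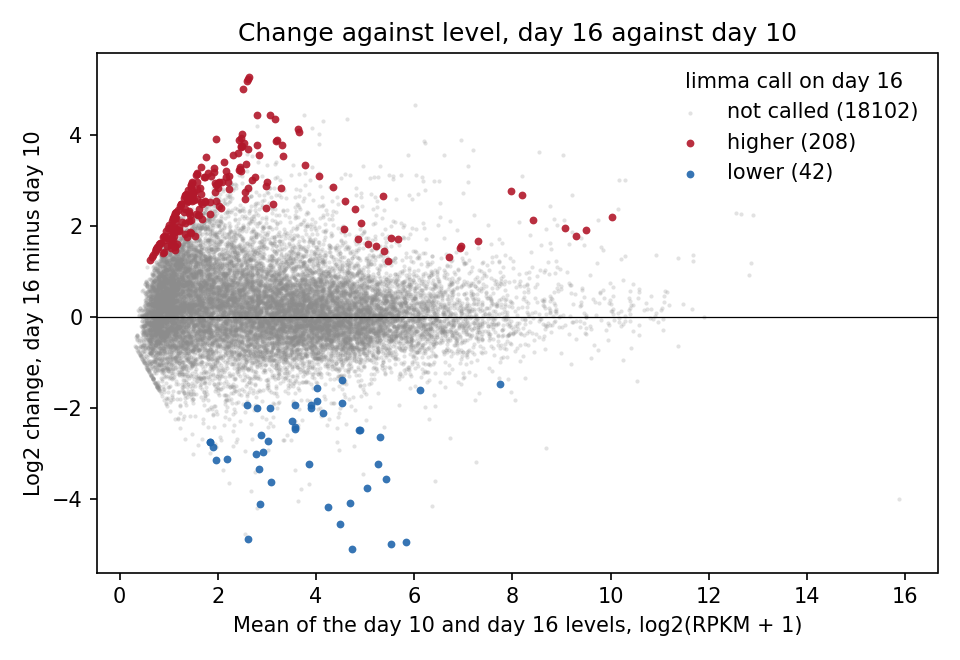
Each point is 1 of the 18352 transcripts tested; the horizontal axis is the mean of its day 10 and day 16 levels as log2(RPKM + 1), the vertical axis its log2 change, day 16 minus day 10. The 208 rises (red) crowd at the low end of the level axis, and the 42 falls (blue) begin at higher levels on day 10.

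The replicates on the 2 days did not overlap for 168 of the 208 rises and 25 of the 42 falls, where 4.82% of all tested transcripts lay wholly above and 1.08% wholly below. For the rises the filter favours this separation. When 1 day 16 replicate was left out, 125 to 128 of the 208 rises still passed it, against all 42 falls. The 50 rises without a read on day 10 could pass only through all 3 day 16 replicates, which fixes their separation in advance. The number of calls changed when single libraries were left out. Leaving out 1 of the 3 day 16 replicates also leaves fewer of them, which makes a call harder to reach. That loss and the part of the particular library were not told apart. Without day 16 replicate 4 it was 2 (0.0116%; 0 higher, with 1366 transcripts at an unadjusted limma p under 0.05), without replicates 2 and 3 (1 sample) 42 (0.234%), and without replicate 1 71 (0.406%). Leaving out day 10 replicate 1 gave 617 (3.47%), and leaving out day 10 replicate 7 gave 252 (1.41%), of which 74 were lower. The filter acts anew in each of these, so with 2 replicates of day 16 a transcript read on that day alone cannot pass it. With the same 18352 transcripts tested, the count was 60 without day 16 replicate 4 (0.327%), 164 without replicates 2 and 3 (0.894%) and 151 without replicate 1 (0.823%). Those 18352 were chosen with the left-out replicate included, so these counts still depend on it. A model fitted to days 10 and 16 only gave 106 calls (0.578%), 87 of them rises. Voom on reads recovered from the RPKM values gave 703 (3.83%), 613 of them rises, and thinning every library to 1 depth gave 162 (0.898%), 110 of them rises. The surplus of rises depended on scaling too: with quantile normalization (2.08% called) 255 were higher and 127 lower. Over everything tested, the median change was 0.15 on the log2 scale, -0.04 after quantile normalization and 0.27 with voom.

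The rises were split by their level on day 19, whose libraries are not in the contrast but share the estimate of the spread behind the calls. On the log2 scale, 66 of the 208 stood nearer to their day 16 level than to their day 10 level on day 19, and 142 stood nearer to day 10. Both subsets were defined after the values were seen and carry no test. The 66 were the abundant part: their median on day 16 was 34.3 RPKM, against 6.30 for the 142, with a median of 460 and 37.5 reads summed over day 16. All 12 rises with a day 16 mean of at least 100 RPKM were among the 66. Of those 12, 4 exceeded 1000 RPKM, rising from means of 311 to 560 on day 10 to means of 1076 to 2294 on day 16.

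The 66 took 0.533 ± 0.204% of day 10 reads (SD, n = 7), 0.375 ± 0.156% on day 13 (n = 5), 1.88 ± 0.329% on day 16 (n = 3) and 1.72 ± 0.350% on day 19 (n = 4), the 92-nucleotide transcript set aside. The lowest day 16 replicate, at 1.53%, lay above the highest of day 10, at 0.773%, as the choice of the rises favours. The 142 took 0.00507 ± 0.00351% on day 10, 0.0769 ± 0.0467% on day 16 and 0.00339 ± 6.9e-04% on day 19. Of the 142, 51 had no read in any day 19 replicate. The split used the day 19 levels, which favours these low day 19 values of the 142 and the kept share of the 66. Among the day 16 replicates, replicate 4 stood highest for 114 of the 142 (80.3%) but for 14 of the 66 (21.2%), where its share over all tested transcripts was 37.0%. The part of that replicate in the rises of the 142 was not tested beyond leaving it out. With the same transcripts tested, 43 of the 142 and 8 of the 66 were still called without replicate 4. Those transcripts were filtered with replicate 4 included, so these counts cannot show how far either subset depends on that replicate. With the filter applied anew, 125 of the rises were still tested without replicate 4 and 0 of them were called.

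ENSBTAT00000008897 (849 nucleotides) and ENSBTAT00000035519 (957 nucleotides) had the largest rises among the 42 that met the rule for naming. That rule asks for no overlap between the 2 days, a mean of at least 20 RPKM on the higher day and a length of at least 200 nucleotides. ENSBTAT00000008897 had its lowest day 10 value at 0 RPKM, its median at 0 and its highest at 4.90, with a read in 3 of 7 replicates. Its day 16 values were 58.9 RPKM in replicate 1, 35.2 in replicates 2 and 3 (1 sample) and 26.3 in replicate 4. All 3 day 16 values lay above the 7 of day 10, and the log2 change was 4.43 ± 0.84 (SE, limma adjusted p = 0.00446).

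For ENSBTAT00000035519 the day 10 values ran from 0 through a median of 1.03 to 4.34 RPKM, and those of day 16 were 61.4, 41.0 and 24.4 RPKM in the same order of replicates. Its log2 change was 4.35 ± 0.84 (SE, limma adjusted p = 0.00541), again without overlap. On day 7, replicates 1, 2 and 3 of 5 had reads of both, at 8.17, 15.6 and 10.9 RPKM for ENSBTAT00000008897 and 7.25, 18.5 and 9.69 for ENSBTAT00000035519. These 3 lay above every day 10 value, and the other 2 replicates of day 7 had none. Neither transcript had a read in any of 5 day 13 replicates. On day 19 both varied widely, from 3.53 to 63.3 RPKM for ENSBTAT00000008897 and from 3.52 to 76.7 for ENSBTAT00000035519, with replicate 1 the lowest and replicate 2 the highest. The pair kept nearly the same profile over the 24 replicates of all days (Pearson r = 0.994 on the log2 scale), and the files do not say whether they are transcripts of 1 gene or of near-identical copies, so their reads may be shared. Both calls ended when any 1 day 16 replicate was left out and the filter applied anew, with adjusted p of 0.0528 to 0.0814, while the log2 change stayed at 4.04 to 4.69. With the same 18352 transcripts tested, both calls were kept in each of these 3 cases, with limma adjusted p of 0.0251 to 0.0495. That set was filtered with the left-out replicate included, which favours transcripts high on day 16 and eases the adjustment. It therefore cannot show that the calls hold without that replicate.

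ENSBTAT00000052001 (738 nucleotides) and ENSBTAT00000002447 (735 nucleotides) had the largest falls among the 17 that met the same rule. ENSBTAT00000052001 ranged on day 10 from 39.8 RPKM in replicate 7 through a median of 126.7 to 180.8 in replicate 5. On day 16 it stood at 8.11 RPKM in replicate 1, 6.38 in replicates 2 and 3 and 2.69 in replicate 4. The 2 days were far apart, and the log2 change was -4.10 ± 0.51 (SE, limma adjusted p = 2.5e-05).

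ENSBTAT00000002447 ranged from 47.9 through 129.4 to 222.3 RPKM on day 10, lowest and highest in the same replicates, and stood at 11.1, 8.25 and 5.40 RPKM on day 16. Its log2 change was -3.76 ± 0.50 (SE, limma adjusted p = 6.2e-05). Day 13 resembled day 10 for both, with 98.3 ± 19.9 RPKM for ENSBTAT00000052001 and 118 ± 15.2 for ENSBTAT00000002447 (SD, n = 5). Day 19 resembled day 16, with 7.02 ± 2.41 and 7.73 ± 2.18 RPKM (n = 4). Day 7 was lower than day 10, at 32.1 ± 21.5 and 37.2 ± 24.2 RPKM (n = 5). This pair too ran together (r = 0.995 over 24 replicates), with equal reads in 2 of the day 10 replicates, 95 in replicate 1 and 75 in replicate 2. Both falls were called in each of 31 alternatives, with log2 changes of -3.71 to -4.45 and -3.47 to -3.98.

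**Figure D2:**
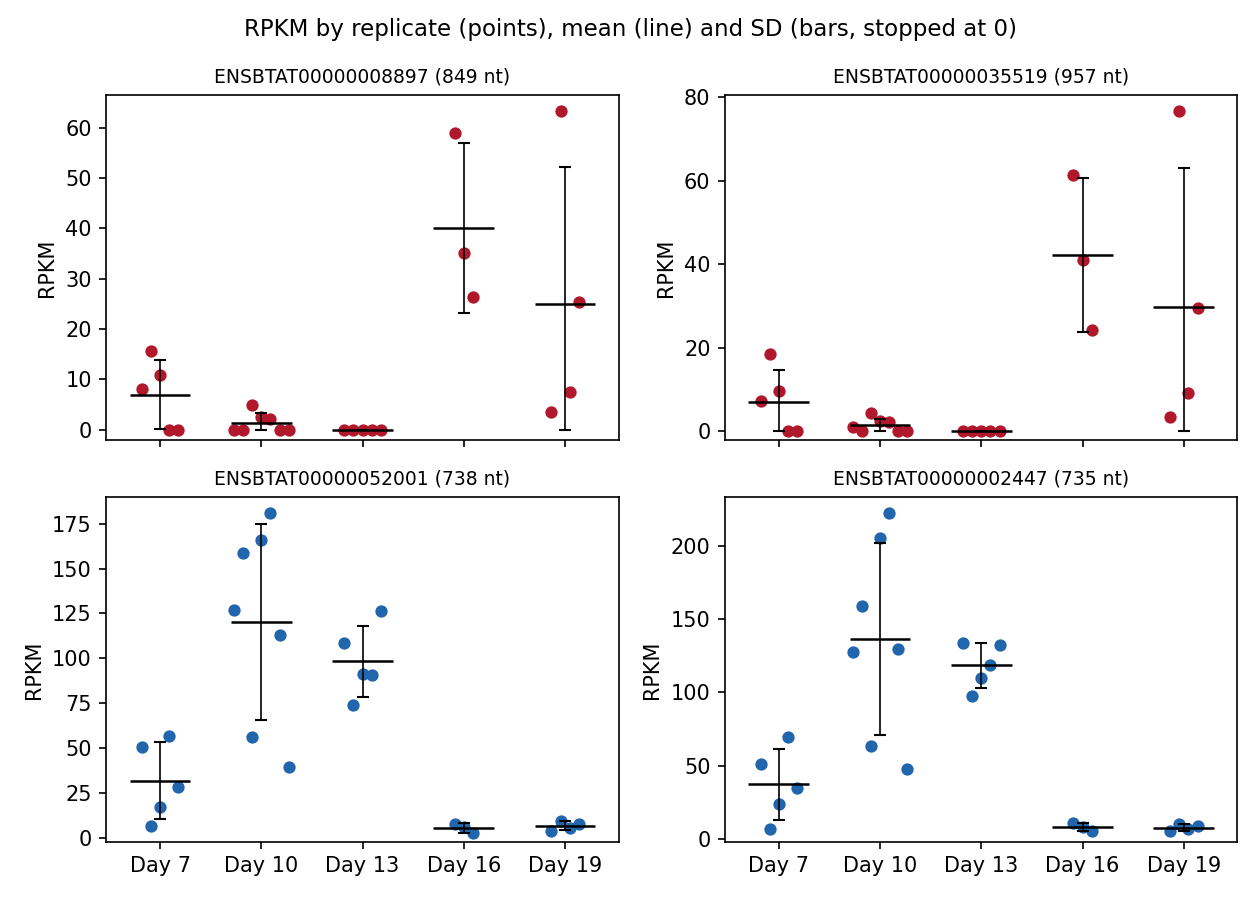
RPKM (vertical axes) of the 4 named transcripts on days 7, 10, 13, 16 and 19; points are replicates, lines are means and bars are SD stopped at 0. The 2 rises (red) have no read on day 13 and spread widely on day 19; the 2 falls (blue) are high on days 10 and 13 and at most 11.1 RPKM on days 16 and 19.

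As a set, the 42 falls divided the series between day 13 and day 16, where RNA extraction changed too, so stage and extraction cannot be told apart. Their median level on the log2 scale was 5.02 ± 0.46 on day 7 (SD, n = 5), 5.11 ± 0.47 on day 10 (n = 7), 5.40 ± 0.29 on day 13 (n = 5), 2.29 ± 0.63 on day 16 (n = 3) and 2.10 ± 0.15 on day 19 (n = 4). On day 13 the conceptuses were already single and not superovulated. All 42 were nearer their day 10 level on day 13 and all 42 nearer their day 16 level on day 19. Of the 19 falls called without the libraries of other days, 18 were nearer day 10 on day 13 and 19 nearer day 16 on day 19. Among 997 tested transcripts that were lower by at least 1 but not called, 71.6% were nearer day 10 on day 13 and 85.9% nearer day 16 on day 19. The 42 were read in every day 10 replicate, and 0 of them lost all reads on day 16. Their summed share of reads was 0.554 ± 0.137% on day 10 and 0.0828 ± 0.0519% on day 16, where replicate 1 held the most at 0.143%. Day 10 replicate 7 had the lowest median of its day, 4.15 against 4.89 to 5.51 in the other 6, and it held the most of the 92-nucleotide transcript.

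The 208 rises had a median of 0 in every replicate of days 10 and 13. Their median was 2.99 in day 16 replicate 1, 2.43 in replicates 2 and 3 and 3.77 in replicate 4, and at most 0.22 on day 19. On day 13, 207 of the 208 were nearer their day 10 level. Of the 87 rises called without the libraries of other days, all 87 were nearer day 10 on day 13, and on day 19 25 were nearer day 16 and 62 nearer day 10. Among the 2701 tested transcripts that were higher by at least 1 but not called, 81.2% were nearer day 10 on day 13 and 52.8% nearer day 16 on day 19. For the called rises the share nearer day 16 on day 19 was 31.7%.

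**Figure D3:**
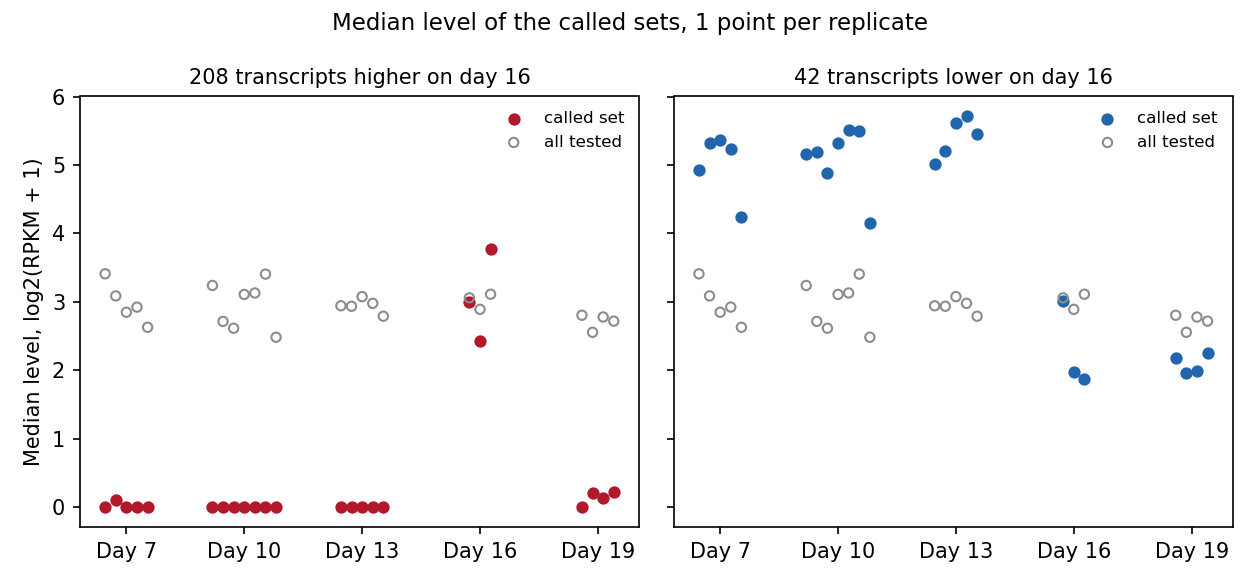
Median level, log2(RPKM + 1), of the 208 rises (left) and the 42 falls (right) in each replicate, beside the median of all tested transcripts (open circles). The falls stay low on day 19, while the median of the rises returns to at most 0.22.

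Day 19 against day 7 is another late-early contrast, with RNA extraction, pooling and superovulation differing in the same way. Its libraries are not those of days 10 and 16, but they helped to set the spread by which the 208 and the 42 were called, so the counts that follow are not independent of that choice. In a limma model of those 2 days alone, 28 of the 42 falls were lower on day 19 (66.7%), where 3.8% of all tested transcripts were, and 0 were higher. The sign was negative for 41 of the 42, against 57.0% of all tested. Of the 208 rises, 39 were higher on day 19 (18.8%), where 3.73% of all tested transcripts were, and 0 were lower. The calls of the model of days 10 and 16 only do not use these libraries: of its 19 falls 10 were lower on day 19 than on day 7 (52.6%), 0 were higher and all 19 had a negative sign, and of its 87 rises 11 were higher (12.6%) and 0 lower. Of those 87, 31 had a positive and 41 a negative sign. None of the named transcripts passed there: the log2 change was 1.83 ± 1.05 for ENSBTAT00000008897 (SE, limma adjusted p = 0.32), 2.04 ± 1.07 for ENSBTAT00000035519 (0.277), -1.77 ± 0.56 for ENSBTAT00000052001 (0.0824) and -1.83 ± 0.56 for ENSBTAT00000002447 (0.0746). Depth differed, at 2.29 ± 2.30 M reads on day 7 and 9.26 ± 2.63 M on day 19, and its part was not tested.

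On the log2(RPKM + 1) scale the share of rises was larger among short transcripts, which was not seen with voom. Transcript length, recovered from the RPKM values, had a median of 941.5 nucleotides for the rises, 1654.5 for the falls and 1693 for all tested. The share of tested transcripts called higher was 5.51% under 500 nucleotides, 2.25% from 500 to under 1000, 0.85% from there to under 2000, 0.342% from there to under 4000 and 0.293% from 4000 upward. The share called lower was 0.292%, 0.249% and 0.257% in the 3 middle classes and 0 in the shortest and the longest, which held 889 and 1366 tested transcripts. The 142 rises that were near day 10 again on day 19 were shorter than the 66, with medians of 707.5 and 1338.5 nucleotides, and 45 and 4 of them were under 500.

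The median log2 difference of day 16 from day 10 over all tested transcripts went from 0.41 in the shortest class to -0.01 in the longest. The shortest and longest classes stood at 0.29 and -0.06 in day 16 replicate 1, 0.40 and -0.09 in replicates 2 and 3, and 0.59 and 0.05 in replicate 4. On day 19 all 4 replicates also stood higher in the shortest class than in the longest, from 0.17 and -0.04 in replicate 1 to -0.30 and -0.44 in replicate 2. Means of days 7, 13 and 19 lay between -0.22 and 0.09 in every class, but their single replicates ran from -0.73 (day 13 replicate 5, shortest class) to 0.27 (day 7 replicate 1, from 2000 to under 4000 nucleotides). At equal depth, 419814 reads per library, the share called higher still ran from 2.5% in the shortest class to 0.0712% in the longest, and the median difference from 0.13 to -0.11. With voom, which weights scarce transcripts down, the shares called higher were 2.92% in the shortest and 3.07% in the longest class, and the median differences were 0.18 and 0.17, with 0.35 from 500 to under 1000 nucleotides.

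**Figure D4:**
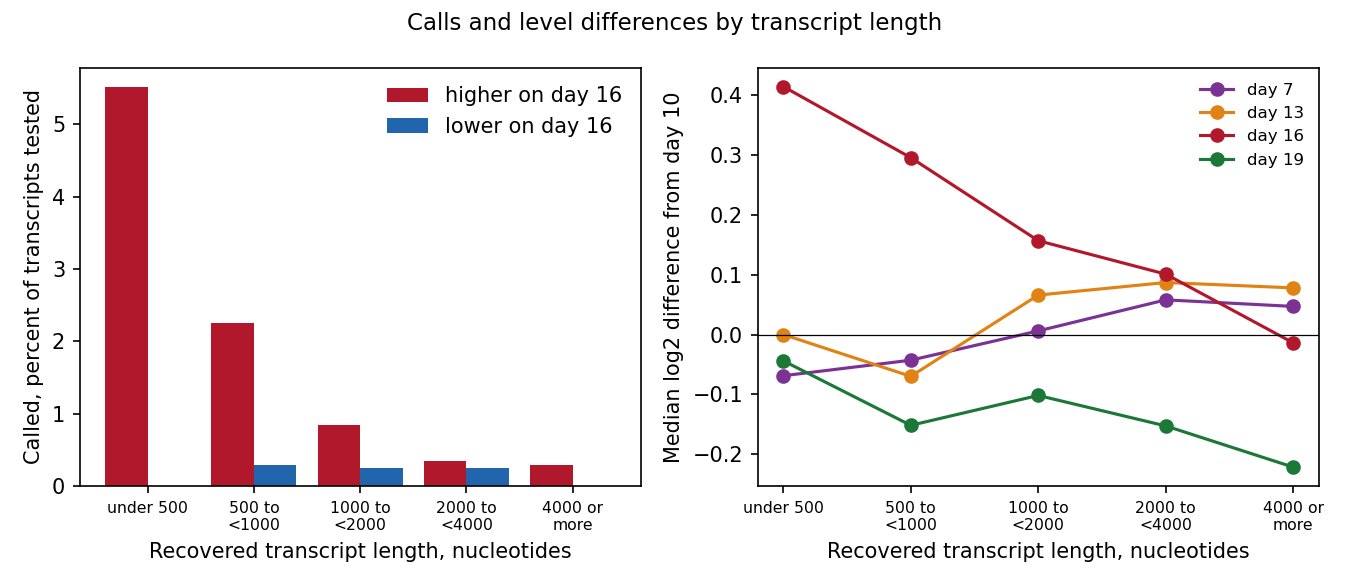
Left, percent of tested transcripts called higher (red) or lower (blue) on day 16 in 5 classes of recovered length; right, median log2 difference of each day from day 10 in the same classes. Calls of rises drop from 5.51% to 0.293% with length, and day 16 is the line that runs from 0.41 to -0.01.

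Some transcripts had reads on only 1 of the 2 days. In 31 cases a transcript had a read in all 3 day 16 replicates, averaging 5 RPKM or more, but none in the 7 of day 10. The opposite, a read in all 7 day 10 replicates and none on day 16, was found for 0, but it asks for reads in more libraries, down to 0.641 M reads. With a read in at least 3 replicates of day 10 and the same mean, 29 had none on day 16, so the 0 rests on the number of replicates asked for. Day 10 held 16.1 M reads in all, so no read there allows up to 0.187 reads per M (3 reads, counting error only), and on day 16 the limit was 0.254 in 11.8 M. Of the 31, 28 passed the filter, which they could do only through their 3 day 16 replicates, and 24 are among the rises (1.13% of all tested are), a count that the choice largely fixes. Their lengths had a median of 435 nucleotides, and they rested on a median of 31 reads summed over day 16. On day 13, 20 of the 31 had no read, as had 20 on day 19 and 14 on day 7, and 7 were without a read on all other days.

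The libraries of the 2 stages also differed in make-up. With the 92-nucleotide transcript set aside, the 10 most abundant transcripts held 6.15 ± 1.15% of the reads in day 10 replicates (SD, n = 7) and 9.20 ± 1.94% in those of day 16 (n = 3; exact permutation test, two-sided p = 0.0167, adjusted p = 0.0334 over 2 measures; the smallest p possible is 0.00833). Day 16 values were 7.06%, 10.9% and 9.66%, and 1 of day 10 overlapped them, replicate 7 at 8.43%. With 1 day 16 replicate left out, the unadjusted p was 0.0278 for replicate 1 and 0.0556 for replicates 2 and 3 (1 sample) and for replicate 4 (exact permutation test). The difference was 4.11, 2.21 and 2.81 percentage points in that order. With 2 day 16 replicates there are fewer arrangements and the smallest p possible is larger. These p-values therefore cannot show whether the difference rests on 1 replicate. At equal depth, the number of transcripts with a read was 14642 ± 1300 for day 10 and 16513 ± 972 for day 16 (exact permutation test, p = 0.0667, adjusted p = 0.0667). Day 10 replicates 6 and 7, at 16230 and 16005, lay above day 16 replicates 2 and 3 at 15499, and day 16 replicate 4 was the highest at 17436. On day 19, the number was 13597 ± 162 (n = 4).

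**Figure D5:**
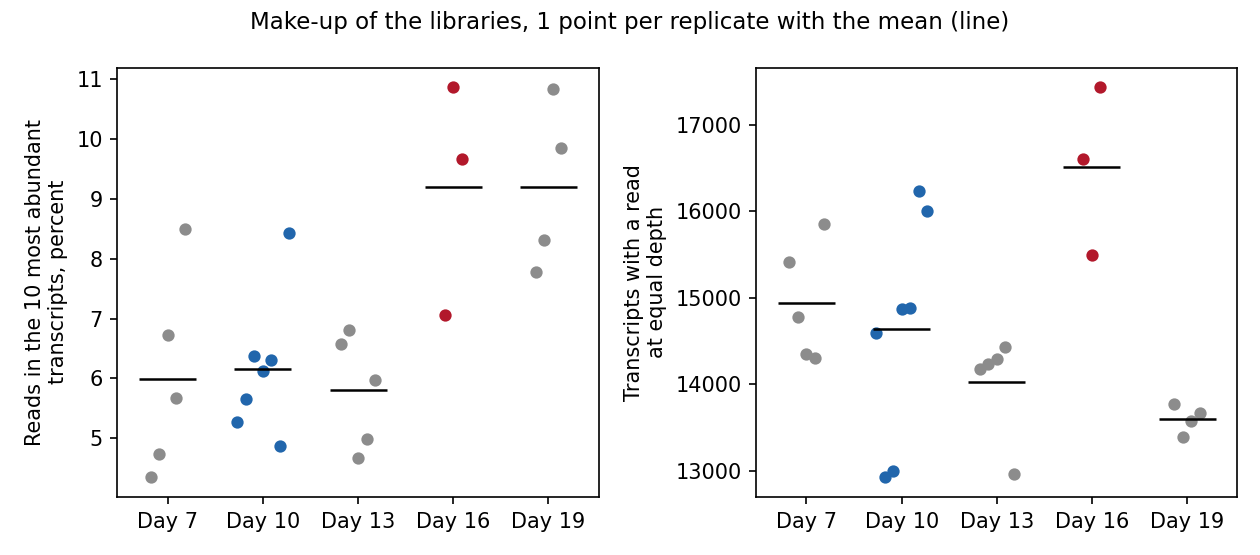
Share of reads in the 10 most abundant transcripts, in percent (left), and number of transcripts with a read at equal depth (right), 1 point per replicate with the mean as a line. Day 16 (red) lies above most of day 10 (blue) in both, with overlap in both.

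The most abundant transcripts were largely shared: 76 of the 100 with the highest mean on day 10 were also among the 100 highest on day 16. Of the 124 in either list, 4 were among the rises and 0 among the falls, where 1.13% and 0.229% of all tested transcripts were. At so small a share of falls, the 0 says nothing about abundant transcripts. Of 108 tested transcripts with a mean of at least 1000 RPKM on either day, 33 had a log2 difference of 1 or more, and 4 were called, all higher (1.36% of all tested were called). Over all 18352 tested, a difference of 1 or more was found for the 250 called and for 2701 higher and 997 lower that were not called. Day 10 replicates resembled each other no more than they resembled day 16: the Spearman correlation over tested transcripts averaged 0.733 over 21 pairs within day 10 (0.592 to 0.972), 0.743 over 21 pairs between the days and 0.876 over 3 pairs within day 16. At equal depth, with the deeper library standing for the averaged pair, these were 0.760, 0.768 and 0.856. These correlations run across transcripts of the same libraries and carry no test. The median SD of a tested transcript on the log2 scale was 0.99 on day 10 and 0.42 on day 16, and a fit with a variance weight for each day called 573 transcripts (3.12%), 490 higher and 83 lower, with 204 of the 208 rises and all 42 falls among them.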

How the data were processed

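The authors deposited 1 RPKM value per Ensembl bovine transcript and library. Per the submitters' processing notes CASAVA was used, with no version or role; aligner, build and annotation: not given in the sources used here. From these, whole reads, transcript lengths and library totals were worked back: 100% of nonzero values lay within 1e-06 of a whole read, and the reads made up at least 99.978% of each total. Replicates were labelled groups numbered in accession order; of 12 libraries whose file carries another sample's title, the 3 with a title of another day were left out, day 16 replicate 5, day 19 replicate 5 and day 7 replicate 6. limma 3.58.1 (R 4.3.3; lmFit, eBayes with trend and robust) was fitted to log2(RPKM + 1) of 24 replicates, with 19 residual degrees of freedom; the pseudocount of 1 understates changes of low transcripts. At equal depth, reads were drawn once with a fixed seed. Alternatives varied pseudocount, filter, model, scaling, depth and the libraries used. Scripts were tested on simulated data. Members, tests and the naming rule were chosen with earlier results of these data known. Named transcripts are the 2 largest called rises and falls whose replicates do not overlap, with a mean of at least 20 RPKM and 200 nucleotides. Marker lists were not analysed here. Values after ± are SDs among replicates or limma SEs, as marked. The limits from 3 reads cover counting error only, and PCR copies are not independent.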

Additional observations from a re-analysis of the deposited data

Results flagged for a closer look

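In 16 groups of 4 to 7 replicates (the 4 named transcripts on days 7, 10, 13 and 19 where values differed, and 2 library measures on day 10), 1 replicate stood far from the others, where chance gives about 1 in 20 groups, or 0.8. It was day 10 replicate 7, with 8.43% of its other reads in the 10 most abundant transcripts. The 2 libraries named next were not used in the comparison. Their median level over the 208 rises lay above that of every day 10 replicate, all of which had a median of 0. Day 19 replicate 5, whose file is titled for a day 7 sample, had a median log2 level of 2.99 over the 208 rises, against at most 0.22 in the other day 19 replicates. Day 7 replicate 6, whose file carries the title of a day 16 sample, had a median of 2.37. The other day 7 replicates had at most 0.105 and the day 16 replicates used 2.43 to 3.77. In day 7 replicate 6 the rises took 1.48% of the reads.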

How the results depend on the processing

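The 4 named transcripts and the 2 library measures kept their direction under the alternatives run, and the size of the call list was not kept. The count of 250 (208 higher, 42 lower) became 616 (557 higher) without a filter, 73 (43 higher) with 5 RPKM as the limit, 106 (87 and 19) in the 2-day model, 573 (490 and 83) with a variance weight per day, 382 (127 lower) with quantile normalization, 397 (339 higher) with median centring, 703 (613 and 90) with voom, 162 (110 higher) at equal depth, 787 (631 and 156) when the near-identical day 16 pair counted as 2 samples and 39 (15 and 24) with all 28 libraries as labelled. Without day 10 replicate 7 and the day 7 library alike in the 92-nucleotide transcript, 145 were lower. Added after seeing the data, the 2-day model with a variance weight called 747 (603 and 144). Also added, leaving out a day 16 replicate with the same transcripts tested gave 151 (117 and 34) for replicate 1, 164 (149 and 15) for replicates 2 and 3, and 60 (53 and 7) for replicate 4. In these the filter had still used the left-out replicate. Otherwise leaving out 1 replicate gave 2 to 617 changed, 0 to 538 higher (35 without day 16 replicates 2 and 3) and 2 to 79 lower, a difference in the share of the 10 most abundant transcripts of 2.21 to 4.11 percentage points (2.81 without day 16 replicate 4), and 1409 to 2378 more transcripts with a read. Of 208 rises and 42 falls, voom called 152 and 39, and equal depth 72 of 149 tested and 33. With a limit of 1 RPKM, 229 transcripts were read in every replicate of day 16 and in none of day 10; with a read in at least 3 replicates asked on either day, added after seeing the data, 229 were read on day 16 alone and 116 on day 10 alone. A count test by edgeR was not run. No paired analysis was possible because the labels give the groups no shared replicate numbers. The causes of these shifts were not tested.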

Other observations

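The 3 libraries left out for a title of another day gave these values over the called sets. The library labelled day 16 replicate 5, with the title of a day 19 sample, had a median log2 level of 0 over the 208 rises and 1.42 over the 42 falls, where the day 16 replicates used had 2.43 to 3.77 and 1.87 to 3.01, and the day 19 replicates 0 to 0.22 and 1.96 to 2.25. ENSBTAT00000008897 stood at 20.8 RPKM there and ENSBTAT00000052001 at 15.8. The library labelled day 7 replicate 6, with the title of a day 16 sample, had 3.25 over the falls. There the other day 7 replicates had 4.25 to 5.36 and the day 16 replicates used 1.87 to 3.01. That library held ENSBTAT00000008897 at 62.7 RPKM and ENSBTAT00000035519 at 72.4, above every replicate of days 7 and 10. The day 16 replicates used had 26.3 to 58.9 and 24.4 to 61.4 RPKM of these. It held ENSBTAT00000052001 at 9.53 RPKM, where the day 16 replicates used had 2.69 to 8.11 and the other day 7 replicates 6.68 to 57.1. The library labelled day 19 replicate 5, with the title of a day 7 sample, had 4.64 over the falls, within the 4.25 to 5.36 of day 7. In it 83.7% of the rises had a read, against 28.9% to 50.5% in the day 7 replicates used. Their share of its reads, 0.5025%, lay within the 0.211% to 0.572% of day 7. The named rises were low there, ENSBTAT00000008897 at 1.41 RPKM and ENSBTAT00000035519 at 1.25, with 1 read each. ENSBTAT00000052001 stood at 37.3 RPKM.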
